A study of Homo sapiens with 6 samples.

Results

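The genes described here are 32 regulators of programmed cell death, chosen by symbol: BCL2 family members, caspases, inhibitors of caspases, apoptosome and mitochondrial factors, and death receptors with their adaptors. All 32 were found among the 58735 genes of the deposited expression table, and 29 had a mean of at least 1 FPKM (fragments per kilobase of gene length, scaled to library size) over the 6 libraries and were tested. All libraries were made from A549, a human cell line established from a lung adenocarcinoma. In 3 of them the cells carried a ZBTB16 plasmid (labelled as ZBTB16 overexpression), and in the other 3 the empty vector pcDNA3.1 (labelled WT). ZBTB16, also called PLZF, is a BTB domain zinc finger transcription factor known mainly as a repressor. No label gives the time between transfection and harvest, or says that repeats were separate cultures, so every p-value below is set against a spread that may be technical.

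In the mitochondrial route to apoptosis, survival proteins of the BCL2 family hold the pore-forming effectors in check, and BH3-only proteins release that hold. Released cytochrome c then assembles the apoptosome, which activates initiator caspase 9 and, through it, the executioner caspases. In the receptor route, ligand-bound death receptors gather adaptors that activate caspase 8 and caspase 10, unless the caspase-like protein CFLAR takes their place. Many of these proteins are controlled by cleavage, binding or degradation, which RNA levels do not measure. In bulk RNA, fewer expressing cells and less RNA per cell cannot be told apart.

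The plasmid gene checked the labels. ZBTB16 stood at 426, 488 and 456 FPKM in the ZBTB16 libraries, and at 0 reads in each empty-vector library. Pooled over the empty-vector group, the exact 95% Poisson interval of 0 reads reached 0.0116 FPKM. Libraries held 15478010 to 17319971 reads assigned to genes, with 6.02% to 6.54% from mitochondrial genes. The keratins KRT7, KRT8 and KRT18 were abundant in every library, and summed epithelial markers stood at 1770 to 1854 FPKM with ZBTB16 and at 1813 to 1959 FPKM with empty vector. EPCAM, a defining epithelial marker, was low, at 1.18, 1.39 and 1.14 FPKM with ZBTB16 and at 1.26, 1.47 and 1.05 FPKM with empty vector. The extraction text in the labels names retinas, but the retinal genes CRX and RPE65 had 0 reads in all 6 libraries. Summed immune markers were at 3.27 to 3.46 FPKM with ZBTB16 and at 3.17 to 3.80 FPKM with empty vector, nearly all of it CD14, and PTPRC was at or near 0. Summed fibroblast markers were at 2.10 to 2.41 FPKM with ZBTB16 and at 2.10 to 2.44 FPKM with empty vector, mostly COL1A1. Endothelial markers summed to 0.130 to 0.263 FPKM with ZBTB16 and to 0.117 to 0.204 FPKM with empty vector, and retinal markers to 0.635 to 0.846 FPKM with ZBTB16 and to 0.574 to 1.14 FPKM with empty vector.

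None of the 29 tested cell death genes was called different between ZBTB16 and empty vector. The limma test on log2(FPKM + 1) used Benjamini-Hochberg adjustment over 12499 genes and a threshold of 0.05. It called 0 of 29, against 0.072% of all tested genes (0.064% as higher, ZBTB16 itself among them, and 0.008% as lower). At an unadjusted p under 0.05 the count was 3, or 10.3% of the 29 against 10.2% of all tested genes. All 3 were higher with ZBTB16 and 0 were lower, where 5.08% of all tested genes were higher and 5.17% lower. The 3 libraries of each group did not overlap for 7 of the 29, or 24.1%, against 16.2% of all tested genes. Of these, 6 were higher and 1 was lower with ZBTB16, where 8.12% of all tested genes were higher and 8.1% lower. Both held for 3 genes, PMAIP1, TNFRSF10A and BCL2A1, where they held for 9.08% of all tested genes, 4.5% higher and 4.58% lower. BCL2A1 reached the 1 FPKM filter through its ZBTB16 values, and without it the counts were 2 at an unadjusted p under 0.05 and 6 without overlap, of 28 genes. Limma voom on reads recovered from the FPKM also called 0 of the 29, where it called 1.38% of all tested genes, 0.792% as higher and 0.584% as lower. Its unadjusted p was under 0.05 for 3 of the 29, against 11.3% of all tested genes. The fold changes split into 16 positive and 13 negative, with a median log2 fold change of 0.01 and a median absolute log2 fold change of 0.06, against 0.00 and 0.06 over all tested genes. The differences in mean FPKM ranged from -10.8% for BIK to 61.0% for BCL2A1.

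**Figure D1:**
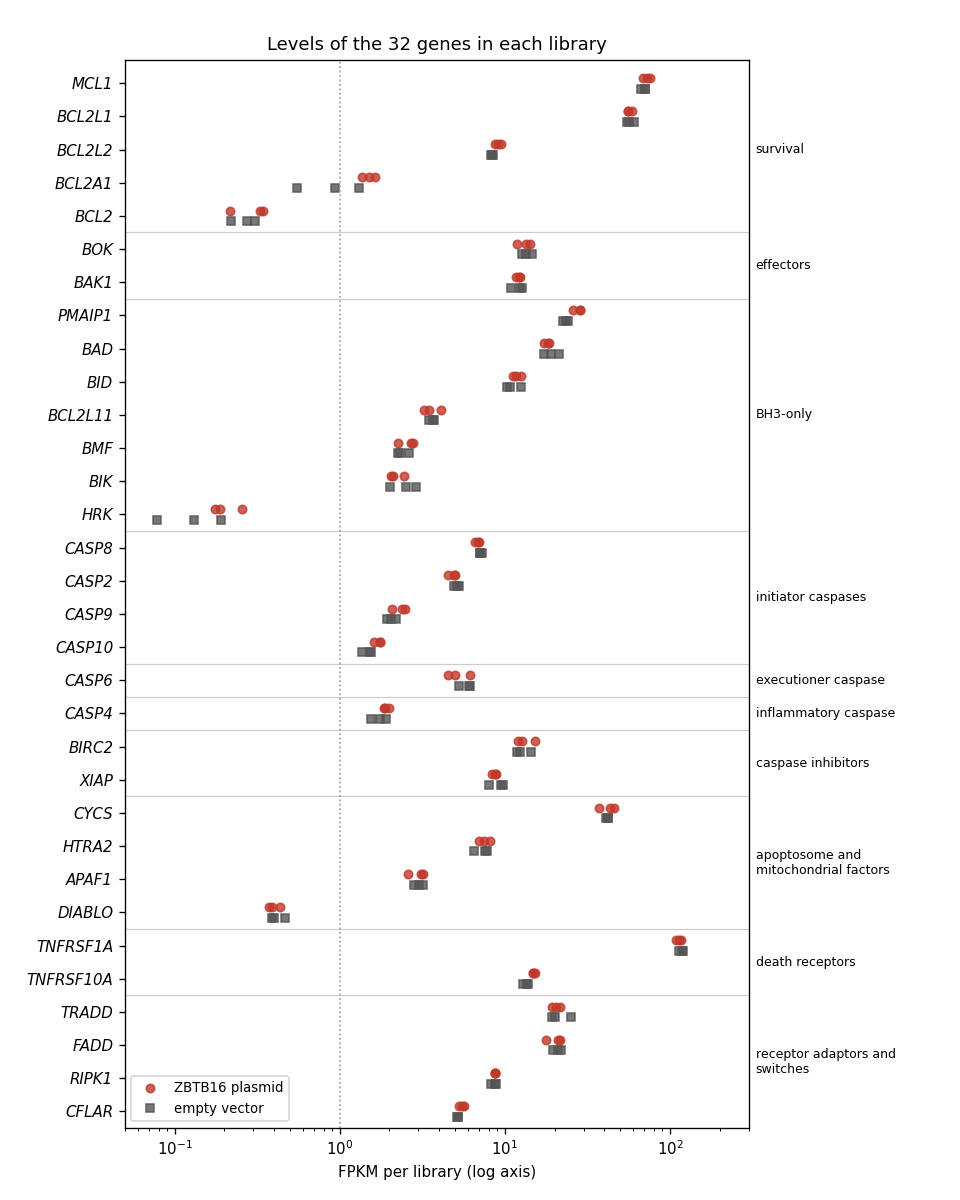
FPKM of each of the 32 genes in each library on a log axis, with ZBTB16 libraries as red circles above empty-vector libraries as grey squares, grouped by role. The dotted line marks 1 FPKM: BCL2, HRK and DIABLO lie below it, TNFRSF1A lies highest at 108 to 120 FPKM, and the gaps between groups are small beside the range between genes.

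The survival genes were led by MCL1 and BCL2L1, which encode the short-lived survival protein MCL1 and BCL-XL. MCL1 stood at 72.4, 75.2 and 68.5 FPKM with ZBTB16, against 66.7, 70.1 and 70.1 FPKM with empty vector. These groups overlapped, and the log2 fold change was 0.06 (SE 0.0488, limma adjusted p = 0.770). BCL2L1 averaged 56.6 ± 1.70 FPKM with ZBTB16 and 57.5 ± 2.73 FPKM with empty vector (SD, n = 3 each), and exons of the antisense gene ABALON cover 43.0% of its length. MCL1 and BCL2L1 together made up 91.9% to 92.5% of the summed survival FPKM with ZBTB16 and 92.8% to 93.2% with empty vector. BCL2 itself, the founding member of the family, was under the 1 FPKM filter at 0.341, 0.328 and 0.216 FPKM with ZBTB16, against 0.274, 0.219 and 0.306 FPKM with empty vector. Its 43 to 66 reads per library overlapped between groups, with an exact two-sided permutation p of 0.6 over 3 against 3 libraries.

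BCL2A1, which encodes the survival protein A1 and is a known NF-kB target, showed the largest relative difference of the tested genes, from few reads. It stood at 1.37, 1.504 and 1.64 FPKM with ZBTB16, from 23, 28 and 31 reads. With empty vector it stood at 1.32, 0.935 and 0.551 FPKM, from 24, 17 and 10 reads. The groups did not overlap, but ZBTB16 replicate 1 and empty-vector replicate 1 lay next to each other. Limma put the difference in log2(FPKM + 1) at 0.39 (95% interval 0.07 to 0.71, adjusted p = 0.374), and at 0.70 with a pseudocount of 0.1 in place of 1. Pooled over each group, 82 reads gave 1.51 FPKM (exact 95% Poisson interval 1.201 to 1.87) with ZBTB16 and 51 reads gave 0.935 FPKM (0.696 to 1.23) with empty vector, intervals that cover counting error only and overlap. Without empty-vector replicate 3 the difference in log2(FPKM + 1) was 0.24, and without empty-vector replicate 1 it was 0.53. The empty-vector mean was below 1 FPKM, so the gene passed the filter through its ZBTB16 values. The gene (ENSG00000140379) lies on the minus strand of hg38 chromosome 15, from 79960889 to 79971446.

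BCL2L2, which encodes the survival protein BCL-w, stood at 9.51, 8.74 and 9.03 FPKM with ZBTB16, against 8.23, 8.45 and 8.34 FPKM with empty vector. All ZBTB16 values were above all empty-vector values, by 9.003% on average, and the limma adjusted p was 0.509. Exons of the read-through gene BCL2L2-PABPN1 cover 19.4% of its length on the same strand, so part of its reads could be split between both.

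The effectors BAK1 and BOK showed overlapping groups. BOK, a BAX-like family member, stood at 14.2, 11.8 and 13.5 FPKM with ZBTB16 and at 14.7, 13.5 and 12.6 FPKM with empty vector. BAK1, which encodes the pore-forming protein BAK, averaged 12.0 ± 0.369 FPKM with ZBTB16 and 12.0 ± 0.980 FPKM with empty vector (SD, n = 3 each). Its log2 fold change of 0.01 had a 95% interval of -0.13 to 0.16.

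Among the BH3-only genes, PMAIP1 had the smallest p of all 29 tested genes. PMAIP1 encodes NOXA, a BH3-only protein that binds MCL1 and A1, and it is a known target of p53 and of the integrated stress response. It stood at 28.6, 28.6 and 25.9 FPKM with ZBTB16, against 22.4, 24.1 and 23.5 FPKM with empty vector. Every ZBTB16 value lay above every empty-vector value, from 839 to 1093 reads per library. The difference was 18.6%, with a log2 fold change of 0.24 (SE 0.0547, 95% interval 0.11 to 0.36). The adjusted p was 0.173 in limma and 0.0633 in limma voom, both above the threshold. An exact permutation test, two-sided, gave p = 0.1, its lowest possible value with 3 libraries a group. In the 16 alternative fits its log2 fold change stayed between 0.21 and 0.28, with an unadjusted p under 0.05 in all 16 and an adjusted p under the threshold in none. Set against MCL1 in the same library, PMAIP1 came to 39.5%, 38.0% and 37.8% of the MCL1 level with ZBTB16 and to 33.6%, 34.4% and 33.5% with empty vector. MCL1 groups overlapped, so this ratio mostly repeats the PMAIP1 difference. It is no separate result and was not tested.

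The PMAIP1 gene (ENSG00000141682) lies on the plus strand of hg38 chromosome 18, from 59899948 to 59904306, and no exon of another gene overlaps its exons. Its promoter is shown because this gene had the smallest p among the members. The 202 bases ahead of the annotated start, at chr18:59899746-59899947 on the plus strand, are from RefSeq on GRCh38.p14. Capitals mark matches on the minus strand to an NF-kB type motif (GGGA, any 4 bases, then CC) and to TGACG, the core of the cAMP response element.
PMAIP1 promoter: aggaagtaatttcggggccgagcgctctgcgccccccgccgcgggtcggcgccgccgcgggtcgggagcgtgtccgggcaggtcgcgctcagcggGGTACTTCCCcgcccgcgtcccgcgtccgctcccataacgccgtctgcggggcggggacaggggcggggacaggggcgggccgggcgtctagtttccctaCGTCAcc
Both strands were searched over the 250 bases before each RefSeq start, and the matches began 155 and 55 bases before the RefSeq start of PMAIP1. That start lies downstream of the annotated start at which the printed sequence ends, so these distances do not count from its end. The NF-kB type motif occurred in 22.6% of 35116 promoters of that length in the table and in 14 of the 26 members with an entry. TGACG occurred in 21.2% of promoters and in 12 of the 26 members, and the AP-1 motif TGANTCA occurred in 6.57% of promoters and in 2 of the 26. The percentages count promoters, whereas a member counted as matched if any of its promoters matched, so the member counts and percentages are not like for like. The matches are letters in a window and do not show binding.

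The other BH3-only genes did not separate the groups. BAD, whose protein is held inactive by phosphorylation, averaged 18.0 ± 0.693 FPKM with ZBTB16 and 19.2 ± 2.04 FPKM with empty vector. BID, which links caspase 8 to mitochondria, averaged 11.8 ± 0.668 FPKM with ZBTB16 and 11.2 ± 1.18 FPKM with empty vector. BCL2L11, which encodes BIM, averaged 3.62 ± 0.451 FPKM with ZBTB16 and 3.63 ± 0.148 FPKM with empty vector (SD, n = 3 each for these genes). BMF and BIK had log2 fold changes of 0.07 and -0.11, at limma adjusted p of 0.865 and 0.816. HRK, known mainly from neurons, was under the filter at 0.255, 0.188 and 0.177 FPKM with ZBTB16, against 0.131, 0.192 and 0.0788 FPKM with empty vector. These values came from 9 to 27 reads per library and overlapped.

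**Figure D2:**
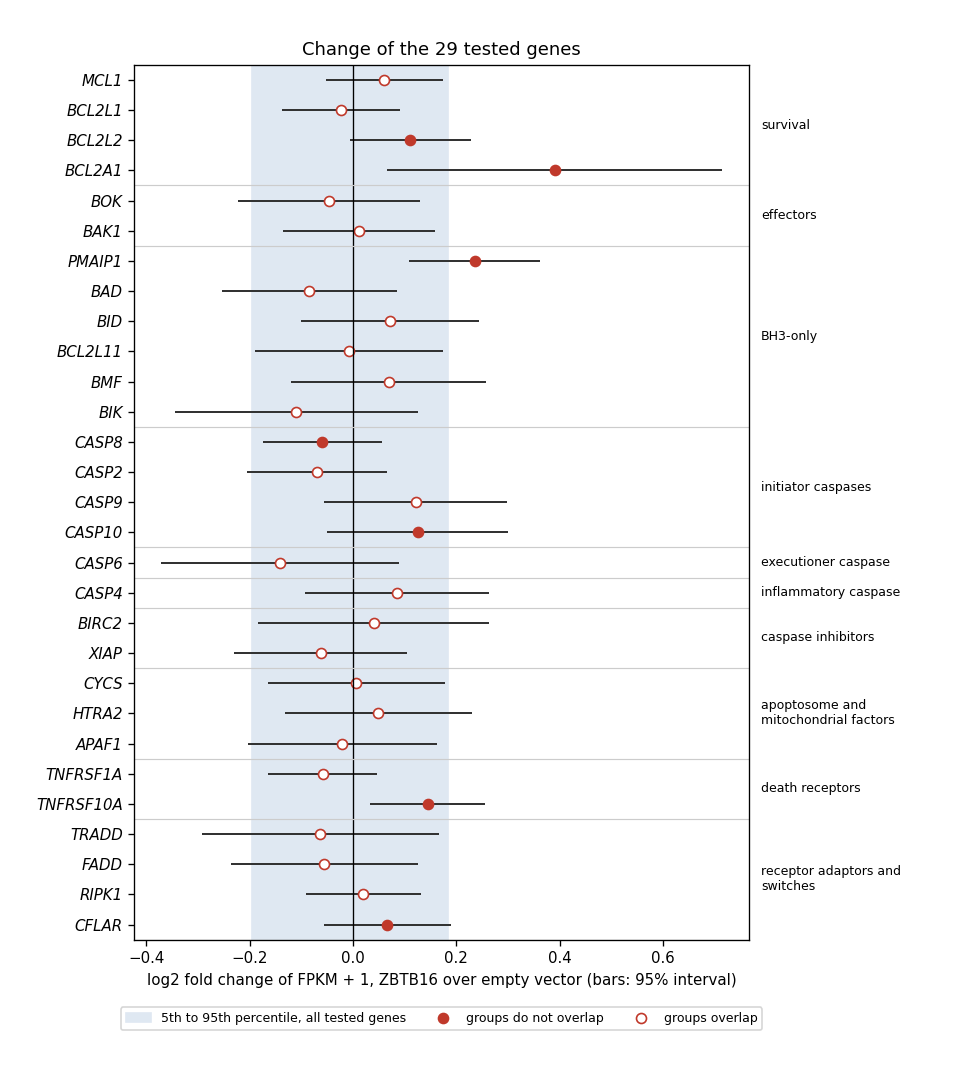
Log2 fold change of FPKM + 1, ZBTB16 over empty vector, for the 29 tested genes, with 95% intervals from limma, grouped by role. Filled circles mark the 7 genes whose groups did not overlap, and the shaded band holds the 5th to 95th percentile of all tested genes, -0.20 to 0.18. BCL2A1 (0.39) and PMAIP1 (0.24) lie outside the band.

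CASP8, the initiator caspase of death receptors, was the most abundant of the initiator caspases measured. It stood at 6.90, 6.98 and 6.59 FPKM with ZBTB16, against 7.08, 7.11 and 7.26 FPKM with empty vector. All ZBTB16 values were below all empty-vector values, but the difference was -4.54%, with a limma adjusted p of 0.787. CASP10, a close relative of CASP8 recruited by the same adaptor, stood at 1.62, 1.76 and 1.75 FPKM with ZBTB16, against 1.37, 1.53 and 1.56 FPKM with empty vector. Here all ZBTB16 values were above all empty-vector values, by 15.1% on average, with a limma adjusted p of 0.665. CASP9, the apoptosome caspase, averaged 2.32 ± 0.215 FPKM with ZBTB16 and 2.05 ± 0.128 FPKM with empty vector (SD, n = 3 each), with overlapping groups. CASP2, which is activated on a separate platform, averaged 4.82 ± 0.252 FPKM with ZBTB16 and 5.11 ± 0.176 FPKM with empty vector (SD, n = 3 each).

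CFLAR, CASP10 and CASP8 are neighbours on the plus strand of chromosome 2, at 201116104 to 201176687, 201182881 to 201229406 and 201233443 to 201287711. CFLAR encodes c-FLIP, which competes with caspase 8 at the death receptor complex. It stood at 5.26, 5.51 and 5.68 FPKM with ZBTB16, against 5.23, 5.22 and 5.12 FPKM with empty vector. The groups did not overlap, but the lowest ZBTB16 value lay within 0.03 FPKM of the highest empty-vector value, and the limma adjusted p was 0.767. The 3 neighbours had log2 fold changes of 0.07 for CFLAR, 0.13 for CASP10 and -0.06 for CASP8. The merged exons of CFLAR span 22529 bases against 7243 for CASP8, so FPKM of these genes depends on which exons the cells use.

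CASP6, the executioner caspase in the set, stood at 4.97, 6.14 and 4.54 FPKM with ZBTB16, against 6.15, 5.24 and 6.09 FPKM with empty vector. ZBTB16 replicate 2 lay among the empty-vector values, and the log2 fold change of -0.14 had a 95% interval of -0.37 to 0.09 (limma adjusted p = 0.728). CASP4, an inflammatory caspase that senses intracellular lipopolysaccharide, stood at 1.88, 1.98 and 1.86 FPKM with ZBTB16, against 1.56, 1.76 and 1.91 FPKM with empty vector. These groups overlapped through empty-vector replicate 3. The caspase inhibitors did not separate either. BIRC2, which encodes the ubiquitin ligase cIAP1, stood at 12.1, 15.2 and 12.6 FPKM with ZBTB16 and at 11.8, 14.4 and 12.4 FPKM with empty vector. XIAP, a direct inhibitor of caspases, averaged 8.64 ± 0.290 FPKM with ZBTB16 and 9.09 ± 0.939 FPKM with empty vector (SD, n = 3 each).

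CYCS, which encodes cytochrome c, stood at 43.2, 46.1 and 37.1 FPKM with ZBTB16, against 42.3, 40.7 and 42.3 FPKM with empty vector. The ZBTB16 values lay on both sides of the empty-vector values, and the log2 fold change was 0.01. APAF1, the scaffold of the apoptosome, averaged 2.96 ± 0.332 FPKM with ZBTB16 and 3.01 ± 0.182 FPKM with empty vector (SD, n = 3 each). HTRA2, a mitochondrial protease that can antagonise XIAP, had a log2 fold change of 0.05, and exons on the opposite strand, LOXL3 among them, cover 36.9% of its length. DIABLO, also called SMAC, is annotated under 2 identifiers that share exons. The longer stood at 0.392, 0.371 and 0.434 FPKM with ZBTB16 and at 0.388, 0.398 and 0.470 FPKM with empty vector, and the shorter had 0 to 4 reads in each library. Exons of the shorter cover 29.6% of the longer, so these values need not reflect the level of DIABLO RNA.

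TNFRSF1A, the main TNF receptor, was the most abundant of the 32 genes. It stood at 117, 108 and 113 FPKM with ZBTB16, against 119, 114 and 120 FPKM with empty vector, groups that overlapped (limma adjusted p = 0.761). TNFRSF10A, which encodes the TRAIL receptor DR4, stood at 14.8, 14.7 and 15.3 FPKM with ZBTB16, against 13.9, 13.6 and 12.9 FPKM with empty vector. All ZBTB16 values lay above all empty-vector values, from 632 to 782 reads per library, and the means differed by 11.3%. On the log2 scale limma gave 0.14 (SE 0.0483, 95% interval 0.03 to 0.25, adjusted p = 0.323), which is not past the threshold, and the limma voom adjusted p was 0.354. Over the 16 alternative fits its log2 fold change stayed between 0.12 and 0.17, with adjusted p from 0.245 to 0.684. The gene (ENSG00000104689) lies on the minus strand of chromosome 8, from 23190452 to 23225126, and exons on the opposite strand cover 16.6% of its length.

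The receptor adaptors showed overlapping groups. TRADD, the adaptor of the TNF receptor, stood at 20.3, 19.2 and 21.6 FPKM with ZBTB16, against 25.1, 19.2 and 19.997 FPKM with empty vector, where replicate 1 was apart from the other two. FADD, the adaptor that recruits caspase 8, averaged 20.1 ± 2.13 FPKM with ZBTB16 and 20.8 ± 1.19 FPKM with empty vector, and an antisense gene covers 54.9% of its exons. RIPK1, the kinase that directs TNF signals to survival or death, averaged 8.72 ± 0.0442 FPKM with ZBTB16 and 8.59 ± 0.269 FPKM with empty vector (SD, n = 3 each). Its 95% interval of -0.09 to 0.13 on the log2(FPKM + 1) scale was among the narrow ones.

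**Figure D3:**
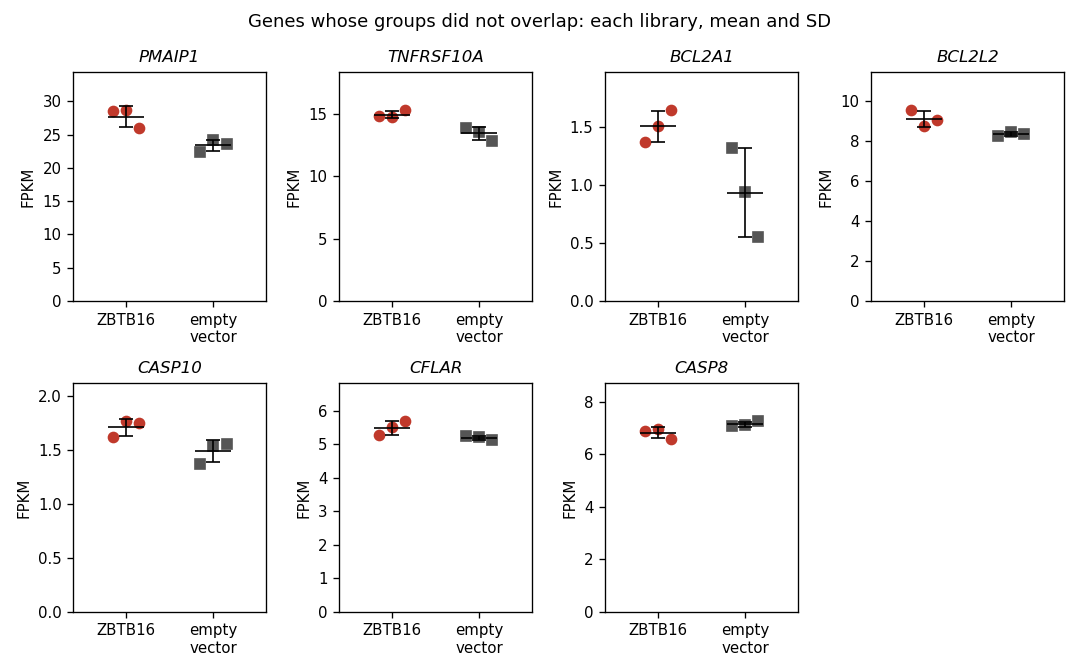
FPKM in each library, with mean and SD, for the 7 genes whose groups did not overlap, ordered by p: PMAIP1, TNFRSF10A, BCL2A1, BCL2L2, CASP10, CFLAR and CASP8. Axes start at 0. CASP8 is the gene with lower ZBTB16 values, and BCL2A1 shows the widest spread among its empty-vector libraries, 0.551 to 1.32 FPKM.

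Summed over roles, the levels of the 2 groups were close. The survival genes summed to 139, 141 and 138 FPKM with ZBTB16 and to 137, 135 and 136 FPKM with empty vector, a difference of 2.51%. The BH3-only genes summed to 68.2, 65.2 and 65.0 FPKM with ZBTB16 and to 65.4, 60.7 and 61.2 FPKM with empty vector, a difference of 5.92%. Of the BH3-only sum, PMAIP1 made up 41.9%, 43.9% and 39.9% with ZBTB16 and 34.3%, 39.7% and 38.4% with empty vector. The BH3-only sum came to 49.1%, 46.1% and 47.1% of the survival sum with ZBTB16 and to 47.7%, 45.0% and 45.0% with empty vector, which overlapped. Initiator caspases summed to a mean of 15.7 ± 0.661 FPKM with ZBTB16 and 15.8 ± 0.310 FPKM with empty vector, and the death receptors to 128 ± 4.36 FPKM with ZBTB16 and 131 ± 2.88 FPKM with empty vector (SD, n = 3 each). These sums are dominated by the abundant members and were not tested.

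**Figure D4:**
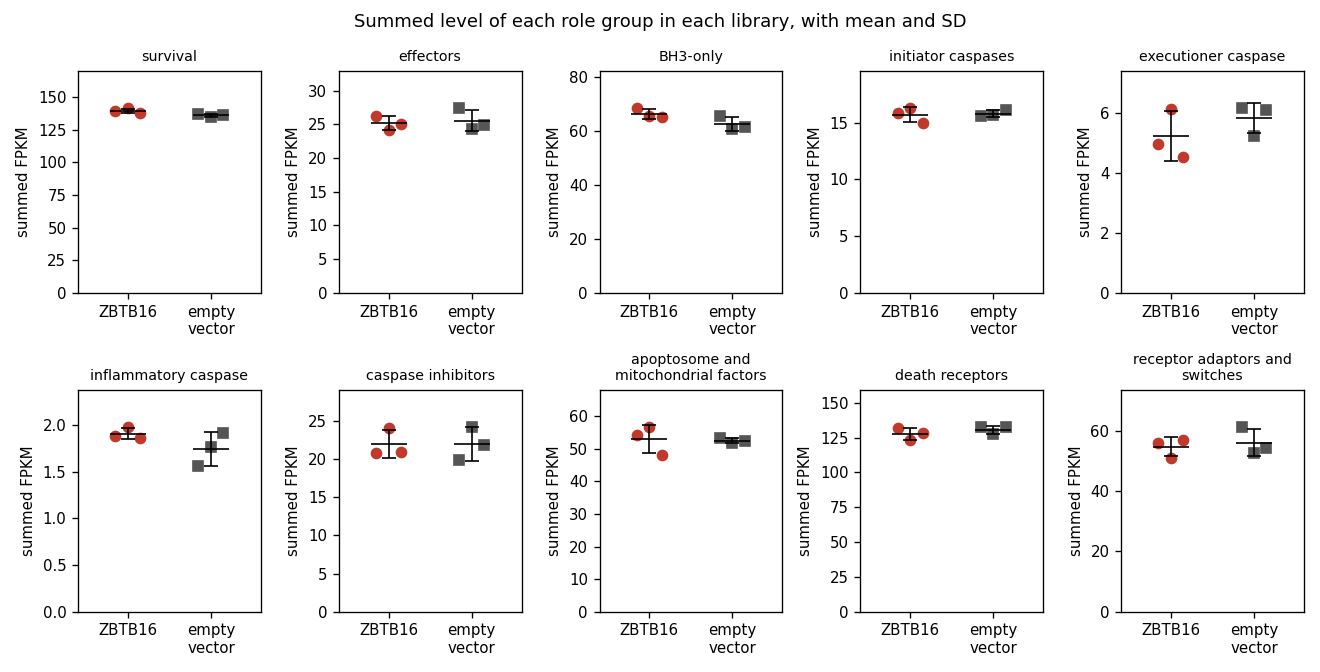
Summed FPKM of each of the 10 role groups in each library, with mean and SD, ZBTB16 in red and empty vector in grey, axes starting at 0. The survival sums do not overlap (138 to 141 FPKM with ZBTB16, 135 to 137 FPKM with empty vector), and the sums of the other roles overlap. The nearest survival sums are 137.9 FPKM with ZBTB16 and 137.1 FPKM with empty vector. Among all tested genes, the groups did not overlap for 16.2%.

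On the log2(FPKM + 1) scale the 95% interval lay within a 1.5-fold change in either direction for 28 of the 29 tested genes, the exception being BCL2A1. This scale understates changes of genes near 1 FPKM, such as CASP10, CASP4 and CASP9.

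A further 39 genes of the same pathway that are no members were listed by name, and 27 of them passed the filter. Limma called 0 of the 27, where it called 0.072% of all tested genes. At an unadjusted p under 0.05, 7 were higher and 4 lower with ZBTB16, or 40.7%, against 10.2% of all tested genes. The groups did not overlap for 13 of the 27, of which 9 were higher and 4 lower, or 48.1% against 16.2% of all tested genes. Limma voom called 2, BIRC3 as higher and BIRC5 as lower, where it called 0.792% of all tested genes as higher and 0.584% as lower. Several of these genes are known targets of NF-kB or p53 or are cell cycle genes, and the list was written with earlier results of these data known, so its counts are a description. TNFRSF1B, among the higher genes without overlap, reached the filter through its ZBTB16 values.

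The 4 with the smallest p were 3 of the inhibitor of apoptosis family and a TRAIL receptor. BIRC7, which encodes livin, stood at 4.97, 5.06 and 4.58 FPKM with ZBTB16, against 6.12, 5.79 and 5.80 FPKM with empty vector (log2 fold change -0.24, limma adjusted p = 0.179). BIRC5, which encodes survivin and also acts in chromosome segregation, stood at 36.8, 33.4 and 33.3 FPKM with ZBTB16, against 44.2, 39.0 and 40.4 FPKM with empty vector (log2 fold change -0.25, limma adjusted p = 0.181). Both were lower in every ZBTB16 library than in any empty-vector library. BIRC3, which encodes cIAP2 and is a known NF-kB target, stood at 19.9, 24.1 and 22.3 FPKM with ZBTB16, against 17.4, 19.3 and 17.4 FPKM with empty vector. Its log2 fold change was 0.28, with an adjusted p of 0.206 in limma on log2 FPKM and of 0.0222 in limma voom. For BIRC5 the limma voom adjusted p was 0.0272. TNFRSF10D, a TRAIL receptor that lacks a working death domain, stood at 13.3, 14.02 and 12.96 FPKM with ZBTB16, against 11.9, 11.9 and 10.9 FPKM with empty vector (log2 fold change 0.20, limma adjusted p = 0.213).

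Further genes of the list are given as examples chosen after their values were seen. TNFRSF10B, which encodes the second death-inducing TRAIL receptor DR5, stood at 54.6, 58.1 and 54.3 FPKM with ZBTB16, against 47.7, 51.6 and 47.4 FPKM with empty vector (limma adjusted p = 0.225). TNFSF10, the TRAIL ligand, stood at 7.51, 8.34 and 6.97 FPKM with ZBTB16, against 5.78, 6.56 and 6.09 FPKM with empty vector (limma adjusted p = 0.213). In both the groups did not overlap. FAS, the receptor of FAS ligand, also had groups that did not overlap, with a log2 fold change of 0.17 and a limma adjusted p of 0.490. In the other direction, BCL2L12 and PARP1 were lower without overlap, with log2 fold changes of -0.21 and -0.10. Their limma adjusted p were 0.292 and 0.476, and with BIRC7 and BIRC5 they were the 4 lower genes without overlap. BAX, a pore-forming effector, averaged 54.0 ± 1.19 FPKM with ZBTB16 and 54.8 ± 3.21 FPKM with empty vector (SD, n = 3 each), with overlapping groups. The receptor TNFRSF25, under the filter, averaged 0.502 FPKM with ZBTB16 and 0.546 FPKM with empty vector. The 12 genes under the filter had means of at most 0.524 FPKM over the 6 libraries, and 9 of them had a read. RIPK3, FASLG and CASP14 had 0 reads in all 6 libraries. Their exact 95% Poisson intervals reached 0.0227, 0.0392 and 0.0211 FPKM over the ZBTB16 group. Over the empty-vector group they reached 0.0226, 0.0390 and 0.0211 FPKM. RIPK3 is the kinase of necroptosis, and its substrate MLKL was present at 9.33 ± 0.731 FPKM with ZBTB16 and 8.41 ± 0.637 FPKM with empty vector (SD, n = 3 each).

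**Figure D5:**
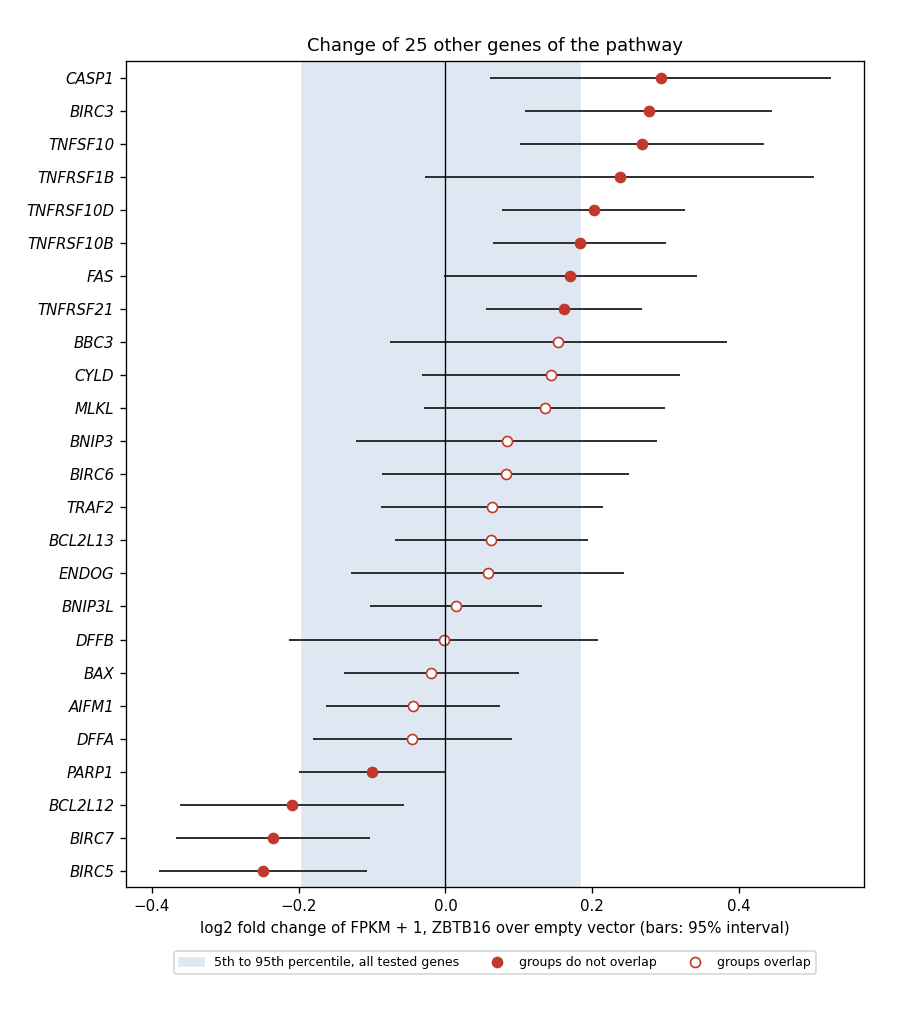
Log2 fold change of FPKM + 1, ZBTB16 over empty vector, with 95% intervals from limma, for 25 tested genes of the pathway that are no members, ordered by fold change. Filled circles mark the 12 genes shown whose groups did not overlap, 8 higher and 4 lower, and the shaded band holds the 5th to 95th percentile of all tested genes.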

How the data were processed

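RNA was prepared with Trizol and a TruSeq kit, per the labels' protocols, and HISAT2 2.0.5 and hg38 are named in the submitters' processing notes. No source used here gives the read counter, strand setting or filters, so reads of overlapping antisense genes may not be told apart. The authors deposited FPKM per gene and library. Identifiers, names and gene lengths equal those of GENCODE 29 for all 58735 genes. Whole reads could be recovered from FPKM and gene length for 100% of values, within 0.01 read. Repeats of each group were farther apart than sampling of reads gives (mean chi-square per gene 2.28 to 5.19).

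Genes with a mean of at least 1 FPKM entered a limma 3.58.1 fit (R 4.3.3) of log2(FPKM + 1) on group, with a trended robust prior and no covariate. Calls used a threshold of 0.05 on the two-sided p after Benjamini-Hochberg adjustment over 12499 genes. Alternatives were other pseudocounts (0.1, 0.5), filters, scalings and priors, protein-coding genes alone, limma voom, a replicate block, and each library left out. The fits were tested on simulated data. Members and lists were chosen with earlier results of these data known. Values in every library are given for members whose groups did not overlap at an unadjusted p under 0.05, for the most abundant member of each role and for members under the filter, and for the 4 other pathway genes of smallest p. Of the 27 tested other pathway genes, 2 enter the counts but are not shown or named here. Further genes are examples chosen after their values were seen. Other steps ran in Python 3.11.15 with matplotlib 3.10.9.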

Additional observations from a re-analysis of the deposited data

How the results depend on the processing

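No member was called under any of the 16 alternatives, and the lowest adjusted p was that of PMAIP1 with voom, 0.0633. Of the 29 tested members 18 kept their direction wherever they were tested (20 of the 29 at a mean of at least 5 FPKM). The other 11 turned with a library left out and in no other alternative, with log2 fold changes from -0.052 to 0.013 for BCL2L1, -0.098 to 0.023 for BOK, -0.052 to 0.052 for BAK1, -0.085 to 0.048 for BCL2L11, -0.051 to 0.12 for BIRC2, -0.059 to 0.094 for CYCS, -0.024 to 0.098 for HTRA2, -0.063 to 0.051 for APAF1, -0.11 to 0.030 for FADD, -0.13 to 0.052 for TRADD and -0.0031 to 0.036 for RIPK1.

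Over all genes limma called 8 higher, the transfected gene ZBTB16 among them, and 1 lower. It called 9 and 2 with a pseudocount of 0.1, 1 and 0 without the filter, as also with a constant prior, 44 and 31 at a mean of at least 5 FPKM, 56 and 33 among protein-coding genes, 13 and 3 after quantile normalization and 99 and 73 with voom. With a library left out the counts were 1 to 6 and 0 to 2. Of the other pathway genes voom called 2, BIRC3 and BIRC5, and each of the other alternatives called 0. A replicate block gave 12 and 3 calls. The labels do not say that repeat numbers pair the libraries, so the numbers were not taken to pair them. Deviations from the group mean correlated at 0.067, 0.047 and -0.044 between libraries with the same number. Between libraries with different numbers the correlations were -0.084 to 0.041, so these weak values do not settle whether the libraries were paired. Depth limits BCL2A1, HRK, BIK, BCL2 and DIABLO, which had fewer than 70 reads in each library.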
